A study of Mus musculus with 6 samples.

Results

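The genes described here are 32 mouse genes of methionine, one-carbon, choline and serine metabolism, picked by name from the 55401 genes of a liver RNA-seq table. All 32 had a row in the table and all 32 passed the filter on low counts that left 18931 genes for testing. They were read in 3 male mice with floxed Prdx1 alleles and an albumin-Cre transgene (labelled Prdx1(lox/lox);Alb-cre, called knockout here and Alb-Cre Prdx1 fl/fl in figures) and in 3 male mice with the floxed alleles alone (labelled Prdx1(lox/lox), called control here and Prdx1 fl/fl in figures). Every mouse was 8 weeks old at the start and spent 5 weeks on MCD. The labels do not spell the abbreviation out, and its common reading in liver research is the methionine- and choline-deficient diet. No mouse on another diet was analysed here, so diet-dependent and diet-independent differences cannot be told apart. The albumin promoter drives Cre in hepatocytes, and it is absent from the controls, so the transgene's own effect cannot be told apart from that of the lost gene.

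Methionine is turned into S-adenosylmethionine, the cell's main methyl donor, and methyl transfer leaves S-adenosylhomocysteine and then homocysteine. Homocysteine is remethylated to methionine, either with a methyl group from folate or with one from betaine, which is made by oxidising choline, or it is passed on to cysteine by transsulfuration. The folate pathway draws its one-carbon units largely from serine and glycine, and choline is also built into phosphatidylcholine, the main phospholipid of membranes and lipoproteins. The liver is a main site of methionine and betaine metabolism, and a diet short of methionine and choline limits the supply to both.

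Deposited counts totalled 58790874 to 78291273 in the knockout libraries and 63189210 to 67319086 in the control libraries. Prdx1, the gene carrying the floxed alleles, encodes a peroxide-reducing enzyme. It had 78.6, 111 and 75.4 CPM (counts scaled to a common library total) in the knockouts, against 644, 570 and 663 CPM in the controls. Its mean was 14.1% of that in controls, and the exact two-sided permutation p was 0.1, the smallest that 3 against 3 libraries can give.

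CPM here use library totals scaled by TMM, which assumes that most genes do not differ, and they compare 1 gene across libraries. Levels of different genes are compared by the deposited FPKM, which also divides by transcript length. Calls use the quasi-likelihood test of edgeR and Benjamini-Hochberg adjustment over all 18931 genes and a threshold of 0.05. Every adjusted p below comes from it unless another fit is named. The scaling matters for small differences. The median log2 fold change of all tested genes was 0.05 with TMM and 0.41 with library totals alone. A limma fit on log2(FPKM + 0.5), called on FPKM below, had a median of 0.27. It kept the 14839 genes with at least 0.5 FPKM in at least 3 libraries, so its gene set and measure differ. Log2 fold changes below should be read against these medians. Library totals alone lifted each member by 0.36 to 0.38 over TMM, whereas on FPKM the shift ran between -0.74, for Phgdh, and 0.96, for Aldh1l2. Both are low genes, with mean FPKM of 0.893 and 0.349 in the knockouts and 0.216 and 0.854 in the controls. The added 0.5 shrinks differences at such levels, so these 2 shifts are not effects of scaling alone.

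With TMM scaling, most of these genes had lower RNA levels in the knockout livers. Of the 32 members, 22 were lower, 1 was higher and 9 did not pass the threshold. The share called lower was 68.8%, where 18% of all tested genes were called lower, and the share called higher was 3.12%, where 19.9% of all genes were. In either direction 71.9% of the members and 37.9% of all genes were called. The median log2 fold change of the members was -0.58. Overlap of single genes was judged on TMM-scaled CPM. Library values did not overlap between the genotypes for 25 members, of which 23 were lower and 2 were higher. Such separation was seen for 53.0% of all tested genes, 24.2% lower and 28.8% higher. Separation also moves with the scaling. By deposited FPKM, the groups of Mat2a, Ahcy, Gnmt, Cbs, Chdh, Aldh7a1, Pemt, Pcyt1a, Mthfd2 and Aldh1l1 overlapped. Those of Mat2b and Psph were apart by FPKM, with the knockouts higher. With library totals alone, 11 members were called lower and 4 higher, and on FPKM the counts were the same. Over all tested genes, library totals alone called 6.6% lower and 34.1% higher. The FPKM fit called 8.9% lower and 38.2% higher of its own 14839 genes. The 11 members whose lower call was lost with library totals alone, at adjusted p values of 0.0946 to 0.94, were Mat2a, Ahcy, Gnmt, Cbs, Chdh, Aldh7a1, Pemt, Pcyt1a, Mthfd1, Aldh1l1 and Psat1, and FPKM called none of these lower. Measured from the median of all genes, 26 members lay below it and 5 above it under TMM, library totals and FPKM alike. Mat1a, Bhmt, Pcyt2, Chpt1, Nnmt, Dmgdh, Sardh, Shmt2 and Aldh1l2 kept both their call and their sign under every other scaling, test, filter and block tried and under each omission of 1 library. Under a rule of at least 2-fold, Mat1a, Sardh and Shmt2 drop out and 6 members remain lower.

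**Figure D1:**
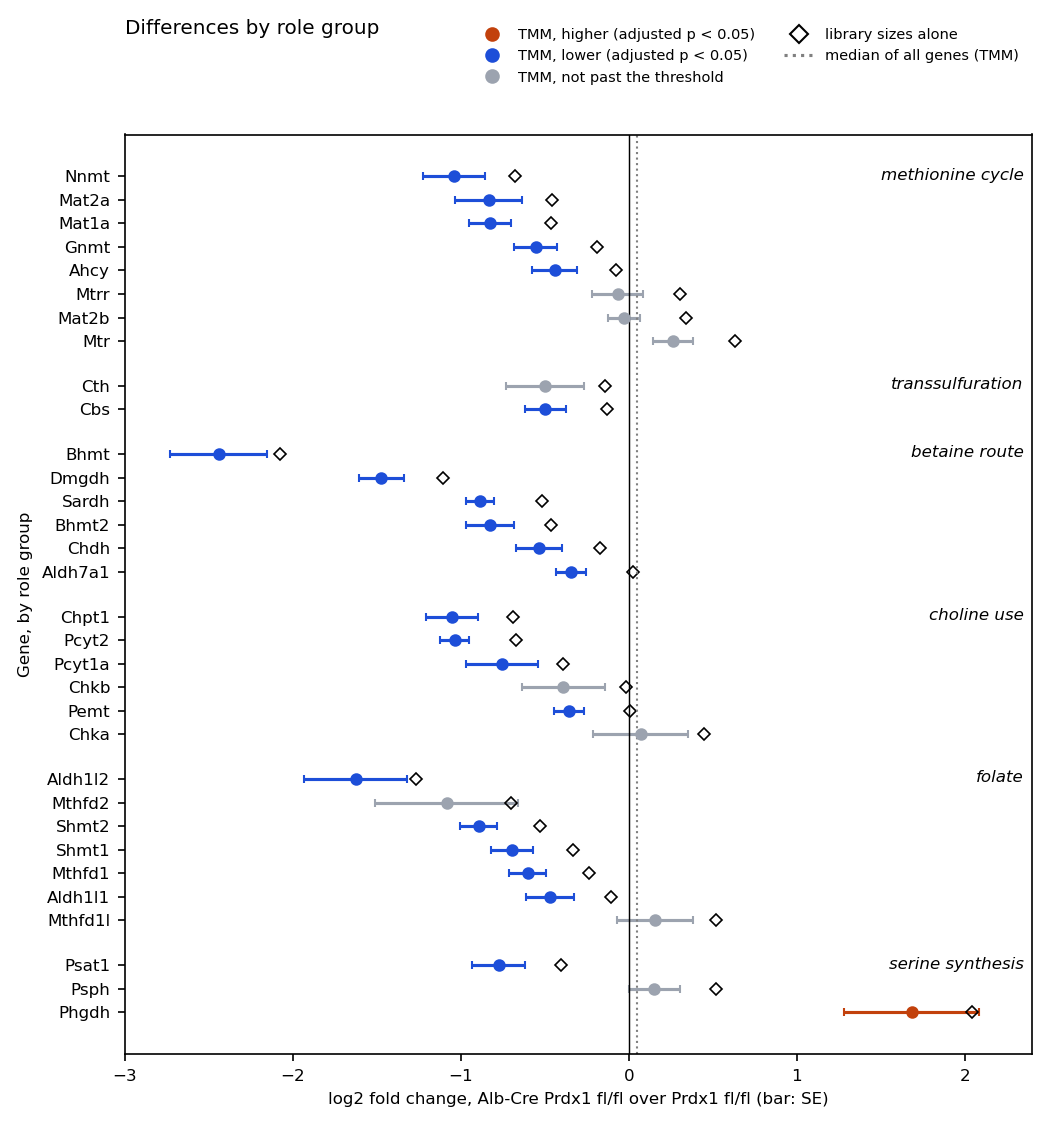
Log2 fold change of each of the 32 genes, Alb-Cre Prdx1 fl/fl over Prdx1 fl/fl (edgeR, bars: SE, 3 mice per genotype), grouped by role. Most points lie below 0, with Bhmt lowest at -2.44 and Phgdh highest at 1.69.

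RNA levels of cell type markers differed as well. Over all tested genes, 18% were called lower and 19.9% higher, against which each marker count should be read. Of 17 hepatocyte markers, 14 were lower and 0 were higher, with a median log2 fold change of -0.72 and a summed level of 67900 to 84100 CPM in the knockouts and 116000 to 138000 CPM in the controls. Of 14 cholangiocyte and ductular markers, 12 were higher, with 1390 to 1590 CPM in the knockouts and 128 to 159 CPM in the controls. Stellate cell and fibroblast markers were higher for 14 of 15 genes, with 2640 to 3030 CPM in the knockouts and 850 to 945 CPM in the controls. Macrophage markers were higher for 16 of 17 genes, with 3170 to 3340 CPM in the knockouts and 1300 to 1460 CPM in the controls. Lymphocyte markers were higher for 3 of 10 genes and lower for 1, endothelial markers were higher for 3 of 9 and lower for 2, and proliferation markers were lower for 4 of 10. No marker on these lists was at 0 in all libraries. The log2 fold changes of the hepatocyte markers were uneven, from -1.34 to -0.01. In bulk liver RNA, fewer hepatocytes, less RNA per hepatocyte and changed expression of the marker genes cannot be told apart. The part of these shifts in the members' differences was not tested. Against the hepatocyte markers, 14 members lay below their median and 18 above it. Bhmt, Aldh1l2 and Dmgdh fell by more than the lowest of those markers, whose log2 fold change was -1.34.

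In the methionine cycle, 5 of 8 genes were lower, 0 were higher and the median log2 fold change was -0.50. Mat1a encodes the methionine adenosyltransferase of mature hepatocytes, which makes S-adenosylmethionine, and it was the most abundant member, with a mean of 792 FPKM in the knockouts and 1106 FPKM in the controls. It had 2428, 2424 and 3215 CPM in the knockouts, against 4922, 4730 and 4642 CPM in the controls. All 3 knockout values lay well below the lowest control, and the log2 fold change was -0.83 ± 0.13 (SE, adjusted p = 0.00184). Even so, Mat1a ranked between 48 and 55 among all genes by FPKM in the knockouts and between 50 and 53 in the controls.

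Mat2a encodes the catalytic subunit used outside hepatocytes and in dividing or injured liver. It had 218, 248 and 167 CPM in the knockouts, against 379, 461 and 287 CPM in the controls. The groups did not overlap, although the spread was wide in both, and the log2 fold change was -0.83 ± 0.20 (SE, adjusted p = 0.0136), which did not pass the threshold with library totals alone (adjusted p = 0.112). Mat2b, the regulatory subunit of that enzyme, had 47.7, 43.7 and 43.4 CPM in the knockouts and 42.4, 49.2 and 45.7 CPM in the controls. Its groups overlapped, and its log2 fold change was -0.03 ± 0.10 (SE, adjusted p = 0.852). Mat2b was called higher with library totals alone (0.34, adjusted p = 0.0277) and on FPKM (0.30, adjusted p = 0.0341, limma).

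The methyl-consuming and clearing steps were lower. Nnmt, which methylates nicotinamide, had 21.6, 22.3 and 34.2 CPM in the knockouts, against 50.0, 59.0 and 51.6 CPM in the controls. Its mean was 48.6% of that in controls, with no overlap and a log2 fold change of -1.04 ± 0.19 (SE, adjusted p = 0.00371). Gnmt, the glycine methyltransferase that disposes of excess S-adenosylmethionine in liver, had 304, 358 and 356 CPM in the knockouts and 444, 585 and 466 CPM in the controls. Its groups were apart at a log2 fold change of -0.56 ± 0.13 (SE, adjusted p = 0.0108), which was -0.19 with library totals alone (adjusted p = 0.248). Ahcy, which splits S-adenosylhomocysteine, averaged 691 ± 89.7 CPM in the knockouts and 938 ± 125 CPM in the controls (SD, n = 3 each), and its call at an adjusted p of 0.0327 was lost without knockout 1 (0.0864), knockout 2 (0.107), control 1 (0.0733) or control 3 (0.0971), and with library totals alone (0.656). Ahcy also shares 74.1% of its transcript's 50-base stretches with the gene model Gm4737, which had 145 to 180 CPM in the knockouts and 208 to 221 CPM in the controls, so the split of reads between them is uncertain.

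Neither gene of the folate-dependent return of homocysteine to methionine passed the threshold. Mtr, methionine synthase, had 26.8, 27.2 and 25.0 CPM in the knockouts, against 19.0, 23.2 and 23.8 CPM in the controls. All knockout values were above all control values, but the log2 fold change of 0.26 ± 0.12 (SE) had an adjusted p of 0.124 and passed the threshold only with library totals alone (0.00524) or on FPKM (0.00936). Mtrr, the reductase that keeps methionine synthase active, had a log2 fold change of -0.07 ± 0.15 (SE, adjusted p = 0.768) with overlapping groups, and 0.30 with library totals alone.

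Of the transsulfuration pair, Cbs was called lower. Cystathionine beta-synthase had 234, 302 and 282 CPM in the knockouts, against 417, 390 and 346 CPM in the controls. The groups were apart with a log2 fold change of -0.50 ± 0.12 (SE, adjusted p = 0.0139), a call lost without control 1 (0.0513) and with library totals alone (-0.13, adjusted p = 0.425). Cth, cystathionine gamma-lyase, had 181, 166 and 284 CPM in the knockouts and 367, 285 and 238 CPM in the controls. Knockout 3 exceeded control 3, the log2 fold change of -0.50 ± 0.23 (SE) had an adjusted p of 0.134, and without knockout 3 it was -0.77 (adjusted p = 0.0218).

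The betaine route held the most reduced gene of the set, and all 6 of its genes were lower, each with groups apart in CPM. By FPKM, the groups of Chdh and Aldh7a1 overlapped. The median log2 fold change of the route was -0.86 with TMM and -0.49 with library totals alone. The summed level was 1690, 1410 and 1840 CPM in the knockouts, against 5310, 5780 and 3910 CPM in the controls. Bhmt, the betaine-homocysteine methyltransferase, had 619, 371 and 653 CPM in the knockouts and 3240, 3697 and 1981 CPM in the controls. Every knockout was far below the lowest control. Its mean of 18.4% of that in controls gave a log2 fold change of -2.44 ± 0.29 (SE, adjusted p = 0.000644). By FPKM rank Bhmt stood between 346 and 585 among all genes in the knockouts and between 83 and 158 in the controls.

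Reads of Bhmt can be shared with close copies, since 56.9% of its 50-base stretches also occur in the gene model Gm5096. That copy had 81.1, 45.9 and 76.9 CPM in the knockouts, against 455, 545 and 315 CPM in the controls. Summed, Bhmt and Gm5096 had 701, 417 and 730 CPM in the knockouts and 3690, 4240 and 2300 CPM in the controls, so the separation of the genotypes does not rest on how reads were divided between these 2 entries.

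The later steps of betaine breakdown were lower by smaller amounts. Dmgdh, dimethylglycine dehydrogenase, which oxidises the product of the Bhmt reaction, had 212, 208 and 233 CPM in the knockouts, against 563, 725 and 525 CPM in the controls. The knockouts were close together and far below every control, at a log2 fold change of -1.47 ± 0.13 (SE, adjusted p = 0.000206). Sardh, sarcosine dehydrogenase, which follows it, had 312, 298 and 343 CPM in the knockouts and 582, 586 and 591 CPM in the controls. Its control values were among the least variable of any member, and the log2 fold change was -0.89 ± 0.08 (SE, adjusted p = 0.00023). Bhmt2, which uses S-methylmethionine in place of betaine, had 152, 142 and 170 CPM in the knockouts and 315, 288 and 221 CPM in the controls. Its groups were apart at a log2 fold change of -0.83 ± 0.14 (SE, adjusted p = 0.00318).

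The 2 enzymes that make betaine from choline differed least. Chdh, choline dehydrogenase, averaged 217 ± 25.0 CPM in the knockouts and 315 ± 49.5 CPM in the controls (SD, n = 3 each), with a log2 fold change of -0.54 ± 0.14 (SE, adjusted p = 0.0182) that was -0.17 with library totals alone (adjusted p = 0.34). Aldh7a1, an aldehyde dehydrogenase that oxidises betaine aldehyde, averaged 194 ± 0.865 CPM in the knockouts and 246 ± 23.4 CPM in the controls (SD, n = 3 each), with a log2 fold change of -0.34 ± 0.09 (SE, adjusted p = 0.0195) that became 0.02 with library totals alone. Neither call was stable to single libraries. The adjusted p of Chdh was 0.0689, 0.0681, 0.0631 and 0.0584 without knockout 1, knockout 2, control 1 and control 3, and that of Aldh7a1 was 0.0644, 0.0634, 0.0563 and 0.0629 without knockout 1, knockout 2, knockout 3 and control 1.

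**Figure D2:**
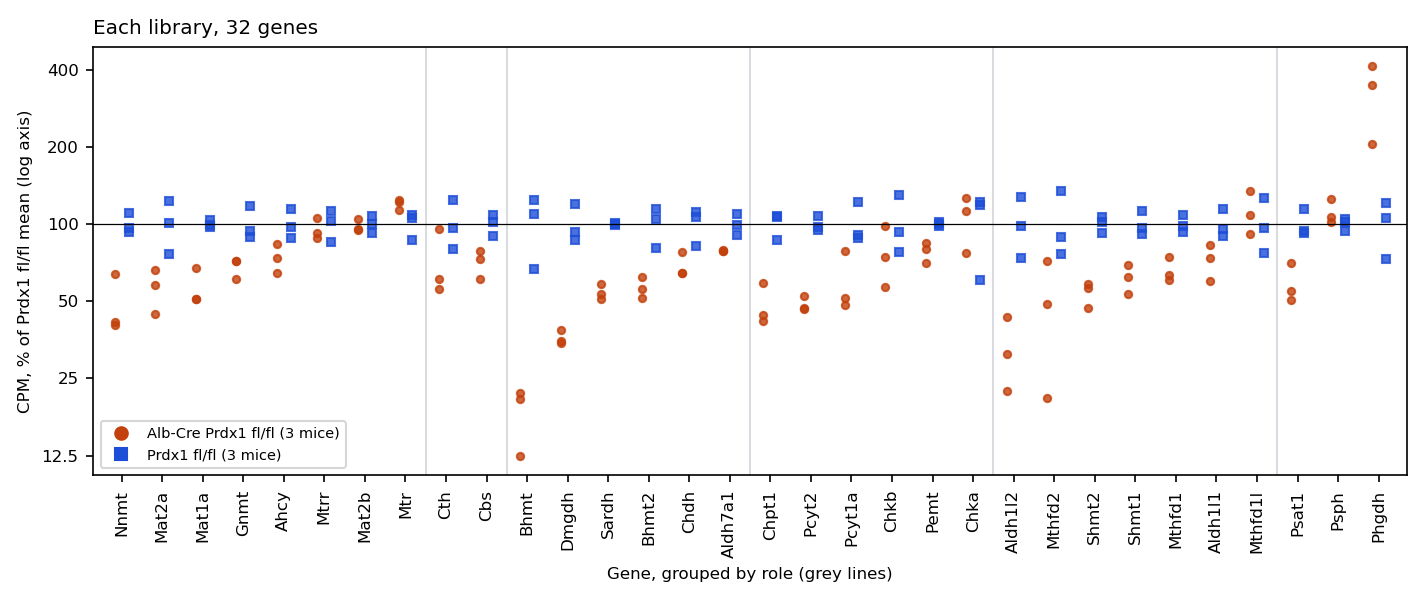
CPM of each of the 32 genes in every library as a percentage of the Prdx1 fl/fl mean (log axis), by role (circles: Alb-Cre Prdx1 fl/fl mice, squares: Prdx1 fl/fl mice). Bhmt and Dmgdh show gaps between the genotypes that are wide next to the spread among mice, and Phgdh shows the opposite order.

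Bhmt, Bhmt2 and Dmgdh lie next to each other on chromosome 13. In GRCm38, Bhmt covers 93616675 to 93637961 on the minus strand, Bhmt2 covers 93655720 to 93674302 on the minus strand and Dmgdh covers 93674433 to 93752833 on the plus strand. Bhmt2 and Dmgdh run head to head, with 131 bases between their 5′ ends. Within 500000 bases on either side, a window chosen with results known, 14 genes were tested. Besides the 3 enzymes, Homer1 was lower at a log2 fold change of -0.62 ± 0.21 (SE, adjusted p = 0.0484), and Cmya5 at 6.78 ± 0.92 (SE, adjusted p = 0.00115) and Lhfpl2 at 1.08 ± 0.14 (SE, adjusted p = 0.000964) were higher. Cmya5 was close to absent in the controls, with a mean of 0.00151 FPKM against 0.234 FPKM in the knockouts, so the size of its fold change is not precise. The nearest tested neighbour beyond Dmgdh, Arsb, had a log2 fold change of -0.16 ± 0.11 (SE, adjusted p = 0.27).

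**Figure D3:**
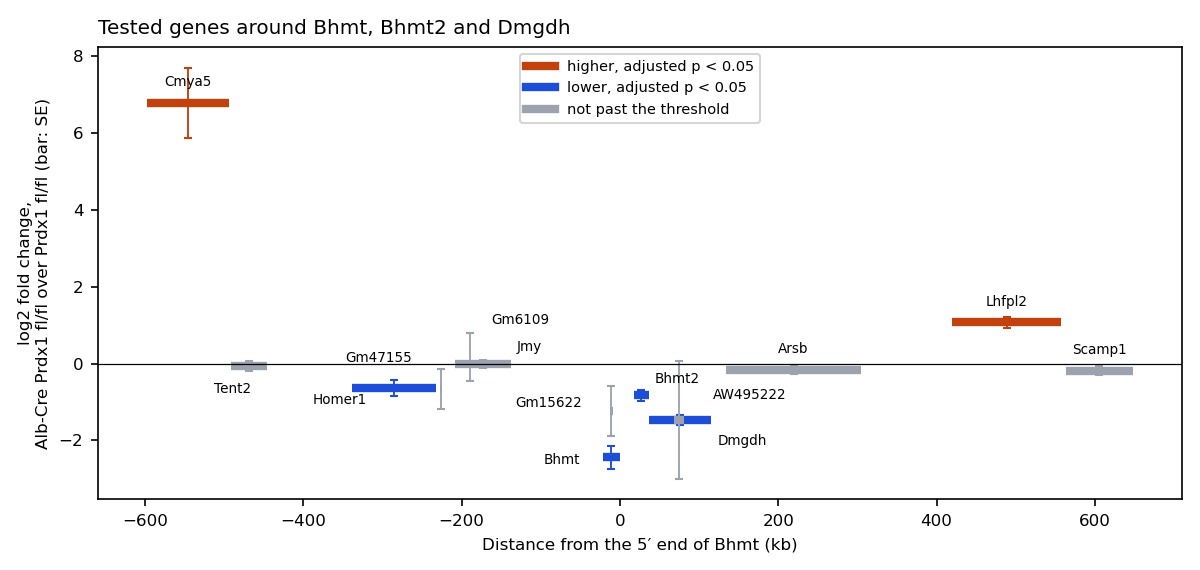
Log2 fold change (Alb-Cre Prdx1 fl/fl over Prdx1 fl/fl, bars: SE) of the 14 tested genes around Bhmt, Bhmt2 and Dmgdh, each drawn over its span as the distance from the 5′ end of Bhmt in kb. Homer1 is the other gene called lower, while Cmya5 and Lhfpl2 are called higher.

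The promoters of Bhmt and Dmgdh are shown because these 2 genes carry the largest differences of the betaine route and because the Dmgdh window also holds the start of Bhmt2. Both come from RefSeq on GRCm38.p6 and run 5′ to 3′ on the gene's strand, from 250 bases before the RefSeq start to 50 after it. Bhmt is chr13:93637709-93638008 on the minus strand, and its capitals mark the 1 match to CAAAGGTCA. That match ends in the AGGTCA core read by many nuclear receptors, and the core also occurs elsewhere in the window, unmarked. The 5′ end of Bhmt in the span given above, 93637961, lies inside this window, upstream of the match. By that span the match falls within the gene, not before it. Dmgdh is chr13:93674186-93674485 on the plus strand, and its capitals mark the 233 bases that the window of Bhmt2 shares.
Bhmt: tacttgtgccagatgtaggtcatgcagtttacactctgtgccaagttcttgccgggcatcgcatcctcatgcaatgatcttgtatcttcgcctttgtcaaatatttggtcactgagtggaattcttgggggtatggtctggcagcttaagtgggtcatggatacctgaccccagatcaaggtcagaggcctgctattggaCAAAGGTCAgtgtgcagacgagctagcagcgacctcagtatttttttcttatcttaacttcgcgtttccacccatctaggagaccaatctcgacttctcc
Dmgdh: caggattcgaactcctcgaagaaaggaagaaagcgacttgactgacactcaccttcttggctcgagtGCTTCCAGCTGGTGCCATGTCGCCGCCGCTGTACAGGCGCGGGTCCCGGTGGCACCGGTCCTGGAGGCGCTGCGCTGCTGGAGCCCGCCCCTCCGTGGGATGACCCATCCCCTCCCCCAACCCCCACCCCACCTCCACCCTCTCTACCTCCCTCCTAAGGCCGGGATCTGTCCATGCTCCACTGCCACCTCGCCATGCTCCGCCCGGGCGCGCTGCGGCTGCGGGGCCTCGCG
The motif CAAAGGTCA was picked after the Bhmt window had been read, so its presence there is a description only. On either strand it occurs in 1 of the 26 members with a window, Bhmt, and in 0.478% of all 32851 windows. The Bhmt window has 8 CG pairs and the Dmgdh window 25, where the median was 18 over the members' 33 windows and 7 over all windows.

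In choline use, 4 of 6 genes were lower, 0 were higher and the median log2 fold change was -0.57. Pcyt2, which makes CDP-ethanolamine, had 204, 205 and 228 CPM in the knockouts, against 414, 425 and 469 CPM in the controls. The mean in knockouts was 48.7% of that in controls, with tight replicates and a log2 fold change of -1.04 ± 0.09 (SE, adjusted p = 0.000168), the smallest adjusted p of any member. Chpt1, the cholinephosphotransferase that completes phosphatidylcholine from CDP-choline, had 33.4, 35.0 and 46.6 CPM in the knockouts and 85.0, 68.7 and 84.5 CPM in the controls. Its groups were apart at a log2 fold change of -1.05 ± 0.15 (SE, adjusted p = 0.00153).

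Pcyt1a makes CDP-choline at the rate-setting step of that pathway. It had 19.3, 20.5 and 31.3 CPM in the knockouts, against 48.5, 36.0 and 35.2 CPM in the controls. Knockout 3 came close to the lowest controls, and the call at a log2 fold change of -0.75 ± 0.21 (SE, adjusted p = 0.0267) was lost without knockout 1 (0.0906), knockout 2 (0.0932) or control 1 (0.0905), and with library totals alone (0.155). Pemt, which makes phosphatidylcholine by methylating phosphatidylethanolamine with S-adenosylmethionine, had 220, 251 and 263 CPM in the knockouts and 320, 308 and 313 CPM in the controls. Its log2 fold change of -0.36 ± 0.09 (SE, adjusted p = 0.0163) was the smallest called difference but for Aldh7a1, became 0.01 with library totals alone, and was not called without knockout 1 (0.0542) or control 1 (0.0535).

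The choline kinases, which take the first step of the CDP-choline pathway, overlapped between the genotypes. Chka had 98.1, 87.5 and 60.3 CPM in the knockouts and 94.7, 92.4 and 47.0 CPM in the controls, with a log2 fold change of 0.07 ± 0.28 (SE, adjusted p = 0.873). Chkb had a log2 fold change of -0.39 ± 0.25 (SE, adjusted p = 0.257), and it shares 77.7% of its 50-base stretches with the gene model Gm44502, whose level ran between 2.03 and 22.2 CPM in the knockouts and 4.93 and 20 CPM in the controls.

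In folate metabolism, 5 of 7 genes were lower, 0 were higher and the median log2 fold change was -0.70. The serine hydroxymethyltransferases, which take the one-carbon unit from serine, were both lower. Shmt2, the mitochondrial form, had 96.7, 116 and 121 CPM in the knockouts, against 190, 211 and 219 CPM in the controls. The groups were far apart at a log2 fold change of -0.89 ± 0.11 (SE, adjusted p = 0.000755). Shmt1, the cytosolic form, had 84.3, 98.3 and 109 CPM in the knockouts and 152, 177 and 144 CPM in the controls, apart at a log2 fold change of -0.70 ± 0.12 (SE, adjusted p = 0.00369).

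Among the enzymes that interconvert folate one-carbon units, Mthfd1, the cytosolic enzyme with several activities on one protein, averaged 122 ± 13.8 CPM in the knockouts and 185 ± 14.7 CPM in the controls (SD, n = 3 each). Its log2 fold change was -0.60 ± 0.11 (SE, adjusted p = 0.00394), and -0.24 with library totals alone (adjusted p = 0.101). Mthfd2, a mitochondrial enzyme that is high in proliferating cells, had 5.10, 7.46 and 2.20 CPM in the knockouts, against 9.27, 14.1 and 7.95 CPM in the controls. It was the most variable member, with knockouts that spread 3.40-fold. Although the groups did not overlap, the log2 fold change of -1.08 ± 0.43 (SE) had an adjusted p of 0.082, and without knockout 2 it was -1.52 (adjusted p = 0.0399). Mthfd1l, which completes the mitochondrial route to formate, had overlapping groups and a log2 fold change of 0.16 ± 0.22 (SE, adjusted p = 0.632).

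The formyltetrahydrofolate dehydrogenases, which burn one-carbon units to carbon dioxide, were both lower. Aldh1l2, the mitochondrial form, had 1.78, 2.49 and 3.48 CPM in the knockouts, against 7.85, 10.2 and 5.92 CPM in the controls. These are low levels, but the groups were apart at a log2 fold change of -1.63 ± 0.31 (SE, adjusted p = 0.00489), and the difference on log2(FPKM + 0.5) was -0.67 (adjusted p = 0.019, limma). Aldh1l1, the abundant cytosolic form, had 369, 453 and 508 CPM in the knockouts and 552, 705 and 585 CPM in the controls. Its log2 fold change was -0.47 ± 0.14 (SE, adjusted p = 0.0337), a call lost without knockout 1 (0.0931), knockout 2 (0.0788), control 2 (0.0989) or control 3 (0.0593), and with library totals alone (-0.10, adjusted p = 0.553).

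The 3 enzymes that build serine from glucose moved in different directions. Phgdh, phosphoglycerate dehydrogenase, takes the first step and was the 1 member called higher. It had 1.39, 2.37 and 2.79 CPM in the knockouts, against 0.820, 0.496 and 0.718 CPM in the controls. All knockouts were above all controls, at a log2 fold change of 1.69 ± 0.40 (SE, adjusted p = 0.0132), a call lost without knockout 3 (1.48, adjusted p = 0.0557). Its deposited counts were 94, 215 and 236 in the knockouts and 46, 29 and 42 in the controls, so the level was low throughout. If about 4 counts stand for 1 read pair, which is assumed and not stated in the labels, fewer read pairs lie behind them. On log2(FPKM + 0.5), a scale that understates changes of low genes, the difference was 0.94 (adjusted p = 0.00605, limma). Phgdh also shares 50.6% of its 50-base stretches with the gene model Gm7901, which had 0.236, 0.805 and 0.815 CPM in the knockouts and 0.410, 0.376 and 0.325 CPM in the controls.

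Psat1, the aminotransferase of the next step, had 19.6, 15.2 and 14.0 CPM in the knockouts, against 25.6, 26.1 and 31.8 CPM in the controls. The groups were apart in the direction opposite to Phgdh, at a log2 fold change of -0.77 ± 0.16 (SE, adjusted p = 0.007), which was -0.40 with library totals alone (adjusted p = 0.0946). Psph, the phosphatase that releases serine, had 7.75, 9.14 and 7.41 CPM in the knockouts and 7.60, 6.83 and 7.42 CPM in the controls, with overlapping groups and a log2 fold change of 0.15 ± 0.15 (SE, adjusted p = 0.478). With library totals alone Psph was called higher at 0.52 (adjusted p = 0.0361).

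The promoter of Phgdh is shown as that of the member that was higher. It is chr3:98339920-98340219 on the minus strand, from RefSeq on GRCm38.p6, with the 50 bases after the start in capitals.
Phgdh: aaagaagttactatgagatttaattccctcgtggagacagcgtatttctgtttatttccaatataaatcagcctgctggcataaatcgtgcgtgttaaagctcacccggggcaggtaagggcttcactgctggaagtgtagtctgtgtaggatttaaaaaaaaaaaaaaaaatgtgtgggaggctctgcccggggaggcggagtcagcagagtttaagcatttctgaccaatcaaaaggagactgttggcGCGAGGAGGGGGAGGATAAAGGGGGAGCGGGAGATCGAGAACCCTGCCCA
The core TGATGNAA of the element bound by ATF4, a stress-response factor whose known targets include serine-synthesis genes, was searched on both strands. It was found in 0 of the 33 windows of the 26 members with one, and in 3.97% of all 32851 windows. This says only that these letters are not within the windows.

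**Figure D4:**
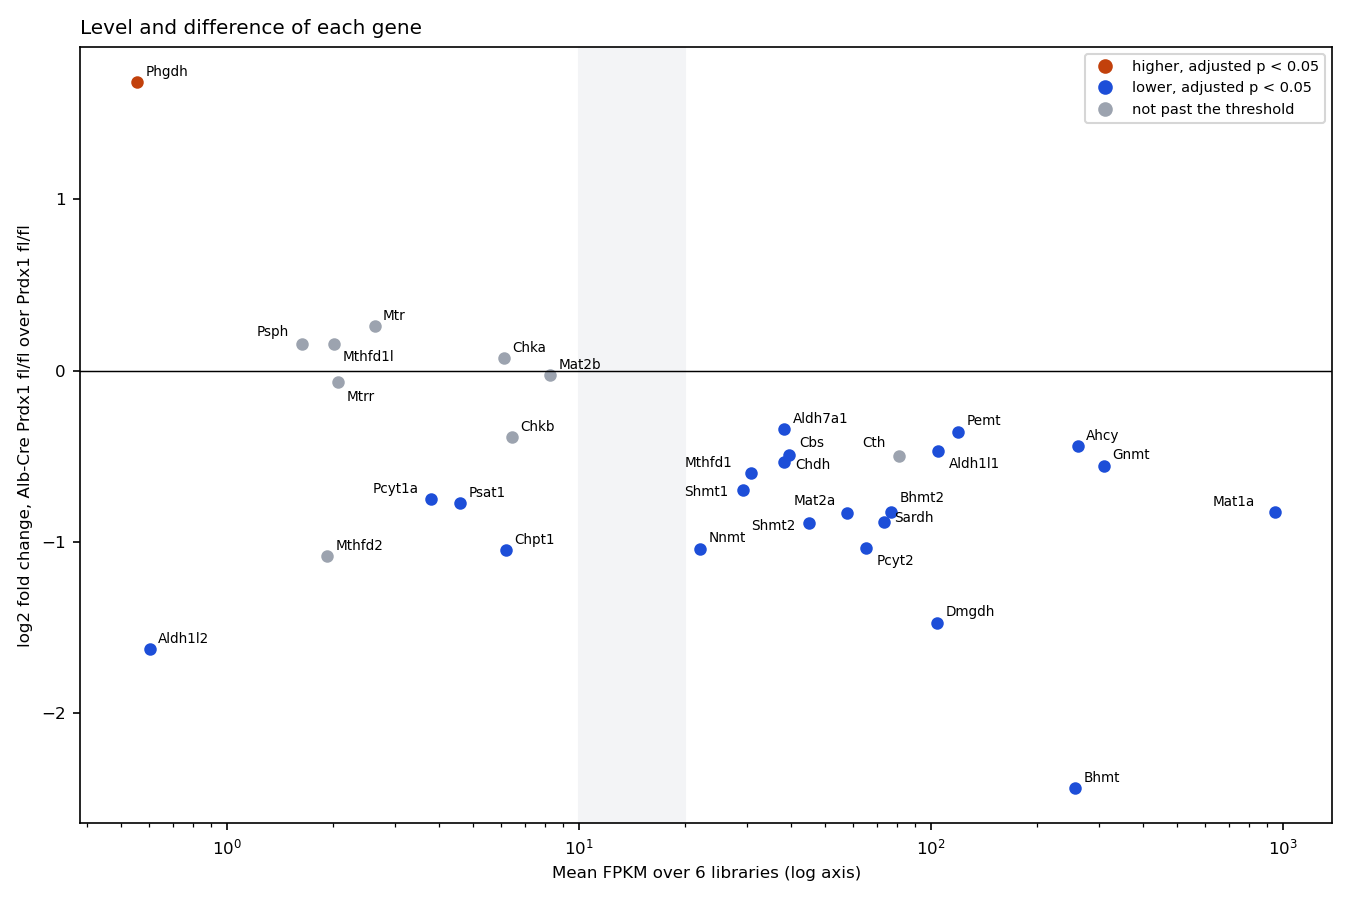
Log2 fold change (Alb-Cre Prdx1 fl/fl over Prdx1 fl/fl) of each of the 32 genes against its mean FPKM over all 6 libraries (log axis), coloured by call. The shaded band from 10 to 20 FPKM holds 0 genes, and 18 of the 19 genes to its right were called lower.

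Level and difference went together within the set. Of the 19 members with a mean of at least 20 FPKM over all libraries, 18 were called lower and the median log2 fold change was -0.70. Cth was the exception. Of the 13 members under 10 FPKM, 4 were called lower and 1 higher, with a median of -0.07. The shares called among all genes at these levels were not computed. The pattern therefore cannot be taken as particular to these members. The members spanned a 5110-fold range of FPKM in the controls. Their spread among mice was close to that of other genes, with a median SD of log2 CPM of 0.19 in the knockouts and 0.187 in the controls, where all tested genes had 0.167 in the knockouts and 0.198 in the controls.

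Ratios of paired genes within a library do not depend on the scaling between libraries. Of 9 pairs, 5 had groups that did not overlap, each with an exact two-sided permutation p of 0.1, the smallest possible, and 0.18 after Benjamini-Hochberg adjustment over the 9. Bhmt over Mtr, the betaine against the folate route of remethylation, had FPKM ratios of 34.2, 20.2 and 38.7 in the knockouts, against 253, 236 and 124 in the controls. Bhmt over Bhmt2 was 1.74, 1.12 and 1.64 in the knockouts and 4.41, 5.50 and 3.85 in the controls. Bhmt thus stayed above its neighbour in every library, by a smaller factor in the knockouts.

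Aldh1l1 over Aldh1l2 was 348, 304 and 243 in the knockouts, against 117, 115 and 165 in the controls. The cytosolic form outweighed the mitochondrial one everywhere, and by more in the knockouts. Mat2a over Mat2b was 5.09, 6.33 and 4.29 in the knockouts and 9.97, 10.5 and 7.00 in the controls. Shmt1 over Shmt2 differed little, at 0.698, 0.677 and 0.725 in the knockouts and 0.642, 0.671 and 0.527 in the controls. Mat1a over Mat2a overlapped, with 14.4, 12.7 and 24.9 in the knockouts, 16.8, 13.3 and 21.0 in the controls and an exact permutation p of 1.0. The pairs Mthfd1 over Mthfd2, Chka over Chkb and Pemt over Pcyt1a overlapped as well.

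**Figure D5:**
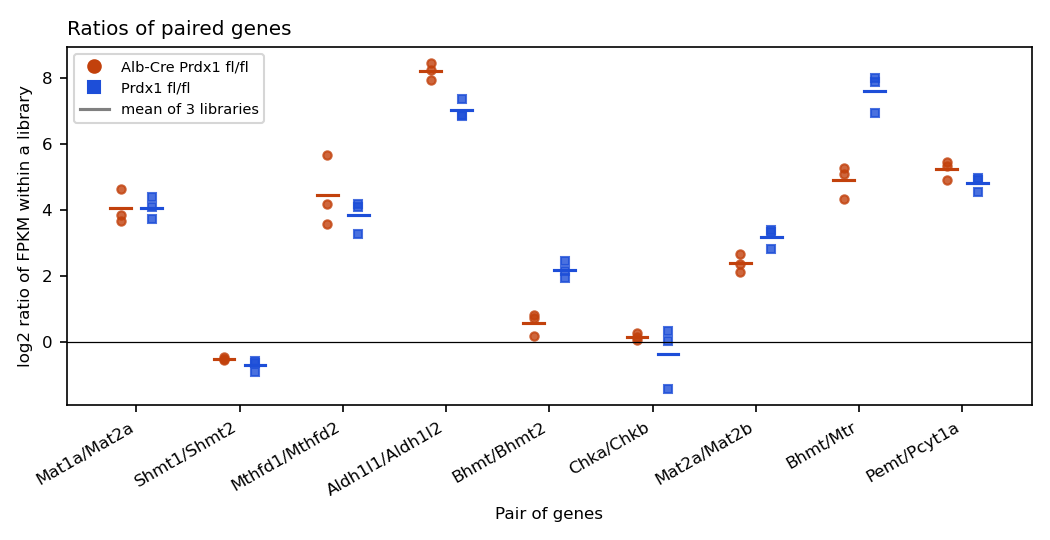
Log2 ratio of FPKM of 9 gene pairs within each library (points: single mice, lines: means of 3), for Alb-Cre Prdx1 fl/fl and Prdx1 fl/fl. Bhmt over Mtr shows the widest gap, at a difference of -2.70, while Mat1a over Mat2a differs by -0.01.

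Other genes of the same pathways were less uniform. Of 95 tested genes on 7 lists, 42 were lower, 11 were higher and 42 did not pass the threshold, with a median log2 fold change of -0.30. The shares were 44.2% lower and 11.6% higher, where 18% of all tested genes were lower and 19.9% higher. These counts also move with the scaling. With library totals alone, 6.6% of all tested genes were called lower and 34.1% higher. The counts of each list below should be read against these shares of all genes. Glycine and serine breakdown was lower for 11 of 14 genes and higher for 0, and with library totals alone for 6 and 1. There, Gldc, the decarboxylating subunit of the glycine cleavage system, averaged 88.4 ± 3.43 CPM in the knockouts and 179.5 ± 16.8 CPM in the controls (SD, n = 3 each). Glyat, which joins glycine to acyl groups, had a log2 fold change of -1.29 ± 0.09 (SE, adjusted p = 8.63e-05), and Dld, the dihydrolipoamide dehydrogenase, one of -0.72 ± 0.08 (SE, adjusted p = 0.000483). Cysteine, taurine and sulfide genes were lower for 7 of 10 and higher for 0 (2 and 0 with library totals alone), among them the sulfite oxidase Suox at -1.11 ± 0.09 (SE), the thiosulfate sulfurtransferase Tst at -0.87 ± 0.12 (SE) and the persulfide dioxygenase Ethe1 at -0.64 ± 0.11 (SE) on the log2 scale.

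Among methyltransferases and genes that handle S-adenosylhomocysteine, 6 of 13 were lower and 2 higher, and with library totals alone 3 were lower and 3 higher. The 2 enzymes of creatine synthesis went opposite ways. Gamt, the methyltransferase, averaged 43.5 ± 5.94 CPM in the knockouts and 97.0 ± 11.1 CPM in the controls, whereas Gatm, the amidinotransferase before it, averaged 38.2 ± 4.81 CPM in the knockouts and 17.7 ± 1.84 CPM in the controls (SD, n = 3 each). Hnmt, which methylates histamine, had a log2 fold change of -1.06 ± 0.13 (SE, adjusted p = 0.000778). The other gene called higher, named after its value was seen, was the DNA methyltransferase Dnmt1 at 0.45 ± 0.12 (SE, adjusted p = 0.02).

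Cobalamin and remethylation partners were lower for 4 of 11 genes and higher for 1, and with library totals alone for 3 and 2. Mmadhc, which routes cobalamin within the cell, had a log2 fold change of -1.06 ± 0.11 (SE, adjusted p = 0.00032). Mmaa and Mmut, which serve the mitochondrial cobalamin enzyme, had -0.94 ± 0.13 and -0.70 ± 0.08 (SE), and the remaining lower gene was Mmachc at -0.60 ± 0.12 (SE). Mmachc lies outside the naming rule and was chosen after its value was seen. It sits close to the floxed gene on chromosome 4, at 116702279 to 116708406, where Prdx1 covers 116685544 to 116700822. The part of that position in its difference was not tested.

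Choline and ethanolamine transport and phospholipid genes were lower for 6 of 18 and higher for 6, and with library totals alone for 3 and 7. The choline transporter Slc44a1 averaged 63.6 ± 6.31 CPM in the knockouts and 33.5 ± 1.39 CPM in the controls, and its relative Slc44a2 averaged 37.5 ± 2.32 CPM in the knockouts and 13.5 ± 2.82 CPM in the controls (SD, n = 3 each). Adjusted p values were 0.000455 for Slc44a1 and 0.000519 for Slc44a2. The other 4 genes called higher were chosen after their values were seen. Their log2 fold changes were 1.59 ± 0.23 for Slc44a3, 4.92 ± 0.81 for Slc44a4, 3.77 ± 0.54 for Pcyt1b and 1.70 ± 0.29 for Gdpd1 (SE). In the controls Slc44a4 had 0.214, 0 and 0.445 CPM and Pcyt1b 0.143, 0.171 and 0.513 CPM. Both were close to absent there, so the sizes of their fold changes are not precise. The ductular, stellate and macrophage marker levels given above were also higher in these libraries, and their part in these rises was not tested.

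Folate partners and transporters were lower for 4 of 16 genes and higher for 1, and with library totals alone for 3 and 6. The share lower with TMM, 25%, was not far from the 18% of all tested genes. The mitochondrial folate carrier Slc25a32 had a log2 fold change of -0.86 ± 0.09 (SE, adjusted p = 0.000314), the folate transporter Slc46a1 one of -0.74 ± 0.12 (SE, adjusted p = 0.00207), and Fpgs, which adds the glutamate tail that holds folate in the cell, one of -0.64 ± 0.09 (SE, adjusted p = 0.00122). Named after their values were seen, Ftcd, which feeds one-carbon units from histidine into folate, was lower at -0.54 ± 0.11 (SE) and the folate receptor Folr2, also a marker of resident macrophages, was higher at 0.83 ± 0.22 (SE). Polyamine and methionine salvage genes were lower for 4 of 13 and higher for 1, and with library totals alone for 2 and 3. Spermidine synthase, Srm, averaged 29.2 ± 4.19 CPM in the knockouts and 63.9 ± 7.95 CPM in the controls (SD, n = 3 each). The salvage enzymes Adi1 and Mtap had log2 fold changes of -0.56 ± 0.08 and -0.49 ± 0.09 (SE). Ornithine decarboxylase, Odc1, was lower at -0.93 ± 0.19 (SE) and the polyamine acetyltransferase Sat1 was higher at 0.41 ± 0.08 (SE), both named after their values were seen.

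Hepatocytes near the central vein and near the portal tract differ in these pathways in healthy liver. Pericentral markers were lower for 9 of 12 genes, with a median log2 fold change of -1.46 and summed levels of 3360 to 4220 CPM in the knockouts and 10600 to 12200 CPM in the controls. Periportal markers were lower for 4 of 11 genes and higher for 1, with a median of -0.76 and summed levels of 5510 to 7170 CPM in the knockouts and 9260 to 10200 CPM in the controls. The part of either shift in the members' differences was not tested.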

How the data were processed

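Liver poly(A) RNA of 6 mice was sequenced as read pairs, per the labels' protocols. Tools named in the submitters' processing notes, with no roles given, are StringTie 1.3.4d, HISAT2 2.0.4, cutadapt 1.9, UMI-tools, edgeR and DESeq2. The notes list the build mm9, but gene positions in the table match GRCm38. Per the file headers, the deposited table pairs, per gene and library, an estimated count with an FPKM value. Columns named wt were assigned to the Prdx1(lox/lox) mice because no other genotype remains. The authors' deposited counts are whole numbers, not scaled between libraries. They appear to cluster at multiples of 4, which is shown here for 4 alone (control 1 held 854 genes at 4, against 280 at 3 and 167 at 5). They were therefore treated as estimated counts, and no counting intervals are given. The authors' deposited FPKM was used for levels, within-library ratios and alternatives.

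Counts were tested in R 4.3.3 with edgeR 4.0.16 (filterByExpr, minimum count 10, minimum total 15, TMM, genotype as the only term, quasi-likelihood test, two-sided, Benjamini-Hochberg threshold 0.05). Alternatives were DESeq2 1.42.0, RLE factors, library totals alone, no count filter, counts divided by 4, limma 3.58.1 on log2(FPKM + 0.5) with pseudocounts 1 and 0.1 or no filter, a replicate block, a 2-fold rule and leaving out each library. Standard errors were taken from the test statistic. Nothing says which mice shared a litter or a batch. The p-values weigh the genotype difference against the spread among these mice, which edgeR estimates in part over all genes.

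The members, the lists and the tests were chosen with earlier results of these data known. Named genes are all 32 members, Prdx1 and, of each other list, up to 3 genes with the smallest p among those past the threshold with groups apart. Where another gene is named, the text says so, and some genes that the rule would name are not reported here. Of 100 other listed genes, 97 had a row and 95 were tested. Shared sequence was counted as 50-base stretches of GENCODE M21 transcripts found in another gene. Promoters are from RefSeq (GRCm38.p6), where 26 members matched. Protein sequences were not used here.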

Additional observations from a re-analysis of the deposited data

How the results depend on the processing

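With library totals alone the members called higher and lower numbered 4 and 11, as they did with limma on log2(FPKM + 0.5), + 1 and + 0.1, while limma on FPKM with no filter gave 3 and 9. All genes called higher and lower numbered 6458 and 1249 of 18931 with library totals alone, and 5669 and 1321 of 14839 with log2(FPKM + 0.5). They numbered 5682 and 1327 with + 1, 1311 lower with + 0.1, and 5978 and 1149 with no filter on FPKM. The rule of at least 2-fold left 6 members lower, 2329 genes higher and 725 lower. Under library totals alone, then FPKM with + 0.5, + 1 and + 0.1, the median log2 fold change was -0.13, -0.15, -0.15 and -0.15 for the methionine cycle, -0.13, -0.16, -0.16 and -0.16 for transsulfuration, -0.49, -0.50, -0.50 and -0.50 for the betaine route, -0.20, -0.21, -0.18 and -0.23 for choline use, -0.33, -0.34, -0.34 and -0.35 for folate, and 0.52, 0.38, 0.31 and 0.47 for serine synthesis. FPKM with no filter gave the same medians as with it. These shifts go with the median of all genes, which was 0.05 with TMM and 0.41 with library totals alone.

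Signs turned for Mat2b (0.34 with library totals, and 0.30, 0.29, 0.32 and, with no filter, 0.30 on FPKM), Mtrr (0.30, then 0.23, 0.19, 0.28 and 0.23), Aldh7a1 (0.024, then 0.009 in each FPKM fit) and Pemt (0.01 with library totals). Leaving out 1 library in turn gave log2 fold changes of -0.081 to 0.027 for Mat2b, -0.19 to 0.26 for Chka, -0.173 to 0.026 for Mtrr and -0.002 to 0.36 for Mthfd1l. It gave 0 to 1 members higher, 16 to 22 lower, a choline-use median of -0.70 to -0.52, and ratio differences of -0.31 to 0.18 for Mat1a over Mat2a and -0.031 to 0.84 for Chka over Chkb. DESeq2, RLE factors, counts divided by 4 and no count filter gave 23, 22, 22 and 20 members lower. The cause of these changes was not tested.

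Whether the replicate numbers pair the libraries is not known. Deviations of libraries with the same number correlated at 0.0163, 0.0634 and 0.0441, each highest for its own number. Those with different numbers correlated at -0.0564 to 0.00896. All of these are small, and with 3 libraries per genotype they cannot settle whether libraries were paired. A fit with the replicate number as a block called 1 member higher and 22 lower, and of all genes 3269 higher and 3207 lower. Pcyt1a lost its call (adjusted p = 0.0502) and Mthfd2 gained one (0.0174). The smallest p that 3 against 3 libraries allow in an exact test is 0.1, which limits the ratios.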
